A study of Rattus norvegicus with 6 samples.

Results

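Glycolysis enzymes and the oxygen sensor Egln3 were followed in liver endothelial cells from control and cirrhotic rats. The genes were 10: Hk1, Hk2, Pfkfb3, Aldoa, Tpi1, Gapdh, Pgk1, Pkm, Ldha and Egln3. Every probe set whose only gene symbol in the platform annotation was 1 of them was taken, dim ones included. This gave 11 of the 15866 probe sets on the array, covering 8 of the 10 genes, out of 10411 genes named by a probe set of their own. Gapdh and Pkm each lay on a probe set that carried a further symbol (Gapdhl10 and Pkm-ps20), which names no single gene. Gapdh was therefore read from 3 control probe sets that the manufacturer places along its transcript, with 3 for hexokinase beside them, and Pkm was not analysed here.

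The study asked how expression differs between endothelial cells of control and cirrhotic livers. Each group had 3 Affymetrix rat 230A arrays. The cirrhotic group came from adult male Wistar rats put through a protocol that induces cirrhosis, and the control group from Wistar rats without it. The labels give neither the method of induction nor the sex of the controls, and do not state how many rats each array stands for. The cells were freed with collagenase, separated by density and captured on antibody-coated magnetic beads, with an unnamed target. As the labels do not say whether arrays held RNA of separate rats, p-values measure only the spread between these arrays, which may be technical.

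Glycolysis splits glucose into pyruvate in the cytosol and yields ATP without oxygen, and endothelial cells are known to draw most of their ATP from it. Hexokinases trap glucose in the cell, PFKFB3 makes the activator that drives phosphofructokinase, and lactate dehydrogenase turns pyruvate into lactate. Prolyl hydroxylases such as EGLN3 use oxygen to mark hypoxia-inducible factors for destruction, and several glycolysis genes and Egln3 itself are known targets of those factors.

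In cells from cirrhotic livers the signals of Gapdh, Pgk1 and Ldha were higher by about 1.47- to 1.82-fold, Pgk1 on its brightest probe set. These genes act in the later steps of glycolysis. The second Pgk1 probe set was 1.29-fold higher and did not pass the test. The Gapdh probe sets stood outside the planned test, and each had a two-sided exact permutation p of 0.1, the smallest possible. They passed when added to that test, a choice made after seeing the data. Egln3 was 3.45-fold higher. Pfkfb3 went the other way and was 3.02-fold lower. Hk1, Aldoa and Tpi1 did not pass the test, and Hk2 was too dim to enter it. Folds here are on the log2(signal + 16) scale, where 16 was added to every signal to steady low values, so folds of dim genes are understated.

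The stretch around the transcription start is shown for the genes on which these results turn, because hypoxia-inducible factors bind a short core motif. The letters ACGTG and GCGTG were searched on both strands, where the reverse strand reads CACGT and CACGC, and matches are in capitals. A palindromic CACGTG counts as 1 match on each strand. Each stretch is read 5′ to 3′ along the gene from the RefSeq promoter table (build GRCr8), from 250 bases before to 50 bases after the start.
Gapdh, chr4:159652418-159652717, minus strand: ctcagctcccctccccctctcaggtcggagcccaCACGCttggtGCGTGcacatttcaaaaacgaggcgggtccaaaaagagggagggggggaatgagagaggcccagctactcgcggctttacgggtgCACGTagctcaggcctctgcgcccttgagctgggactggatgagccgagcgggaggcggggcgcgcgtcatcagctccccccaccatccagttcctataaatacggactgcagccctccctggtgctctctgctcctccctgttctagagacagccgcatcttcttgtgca
Ldha, chr1:106507842-106508141, plus strand: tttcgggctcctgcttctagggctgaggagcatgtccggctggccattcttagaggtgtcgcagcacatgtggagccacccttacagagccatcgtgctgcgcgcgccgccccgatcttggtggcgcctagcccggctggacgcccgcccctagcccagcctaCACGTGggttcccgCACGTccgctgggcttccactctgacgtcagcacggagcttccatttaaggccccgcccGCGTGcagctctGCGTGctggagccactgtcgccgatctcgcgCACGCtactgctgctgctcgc
Pfkfb3, chr17:71944683-71944982, plus strand: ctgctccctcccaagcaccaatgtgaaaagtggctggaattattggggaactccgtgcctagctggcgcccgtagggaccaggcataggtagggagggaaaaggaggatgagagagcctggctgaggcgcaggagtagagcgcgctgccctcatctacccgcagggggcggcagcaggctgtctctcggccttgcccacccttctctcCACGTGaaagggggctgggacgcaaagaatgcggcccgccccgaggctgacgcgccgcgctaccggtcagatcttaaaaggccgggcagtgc
Egln3, chr6:77410966-77411265, minus strand: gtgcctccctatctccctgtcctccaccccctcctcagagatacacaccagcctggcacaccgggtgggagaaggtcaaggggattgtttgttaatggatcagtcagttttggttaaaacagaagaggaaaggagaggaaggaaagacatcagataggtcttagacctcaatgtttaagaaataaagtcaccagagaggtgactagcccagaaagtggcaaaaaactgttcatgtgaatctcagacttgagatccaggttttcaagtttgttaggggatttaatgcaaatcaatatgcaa
The Ldha stretch held 6 matches, the Gapdh stretch 3, the Pfkfb3 stretch 2 from a single palindrome, and the Egln3 stretch 0. Of all 33469 stretches of this length in the table, 41.6% held at least 1 match, 19.2% at least 2, 8.2% at least 3 and 0.6% at least 6. The table held 9 of the 10 genes, all but Pgk1, and 5 of their 12 stretches held a match. A match describes these letters and is not a binding site, and its absence says only that the letters are not in this window.

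Arrays of the same group correlated at 0.912 to 0.967 and arrays of different groups at 0.821 to 0.874 (Pearson's r across probe sets, which are not independent). Of 9519 probe sets bright enough to test, 2421 (25.4%) had an adjusted p under 0.05 in limma, 1167 (12.3%) higher and 1254 (13.2%) lower in cirrhosis. Summed markers of some other cell types moved with the groups, while the sums of hepatocyte, macrophage and T and NK cell markers overlapped. Of 12 tested general endothelial markers 11 fell and 1 rose (summed signal 38625 to 40005 in controls, 20108 to 22318 in cirrhosis), so endothelial transcripts were present on all arrays. The 8 tested markers of sinusoidal endothelium all fell, and their summed signal went from 43712 to 48429 in controls to 18910 to 22840 in cirrhosis. For the other cell types the signal was summed over every marker with a probe set of its own, dim ones included. The sum of 12 stellate cell and myofibroblast markers was 2159 to 3807 in controls and 16054 to 26645 in cirrhosis, and that of 9 cholangiocyte markers 771 to 1540 against 5241 to 13475. The sum of 13 hepatocyte markers was 30356 to 40592 against 36150 to 65402, and that of 7 macrophage markers 3591 to 7317 against 5013 to 10989. Single macrophage markers went both ways. Lyz2 rose by 1.32 (adjusted p = 0.0122 in limma) and Laptm5 by 1.40 (0.00968). Clec4f fell by 3.22 (0.00427), and C1qa, C1qb, Cd68 and Csf1r were not called. T and NK cell markers summed to 3687 to 5018 against 3521 to 6884, erythroid markers to 1182 to 2116 against 2595 to 8643, mast cell markers to 600.8 to 864.5 against 1227 to 4290.0 and neutrophil markers to 83.8 to 168.5 against 553.8 to 2866. Kit, on the mast cell list, fell by 1.36 (adjusted p = 0.00131 in limma), and the other 3 tested mast cell markers rose. Many markers of some types passed the filter on low signals only through their cirrhotic level, so their called counts are not a fair measure. A control mean under the filter was held by 6 of 8 tested cholangiocyte, 5 of 10 stellate cell and 3 of 4 mast cell markers, and by the 1 tested neutrophil marker. Of 13 tested hepatocyte markers 4 rose, 0 fell and 9 were not called. Of 9 T and NK cell markers 4 rose, 0 fell and 5 were not called. Among those that rose, 1 hepatocyte and 2 T and NK cell markers had a control mean under the filter. The same held for Cldn5 (control mean 109), the 1 general endothelial marker that rose. Over all probe sets 12.3% were called higher and 13.2% lower. No marker probe set read 0 on all 6 arrays. Their part in the results below was not tested. In bulk RNA, fewer cells of a type and less RNA per cell cannot be told apart.

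Of the 9 tested probe sets of the chosen genes, 4 were called, against 25.4% of all probe sets. Those higher in cirrhosis were 3 (12.3% of all) and 1 was lower (13.2% of all). In 5 of the 9 the groups did not overlap, against 44.9% of all probe sets. Counted once per gene, by the brightest probe set, 4 of 7 tested genes were called, 3 higher and 1 lower. Egln3 is in each of these counts as called higher or without overlap, though only its cirrhotic level carried it over the filter. The median difference of the 9 probe sets was 0.20 on the log2 scale, against -0.02 over all probe sets, and 6 of the 9 lay above 0. With so few probe sets, these shares describe the genes and are not a test of the group.

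**Figure D1:**
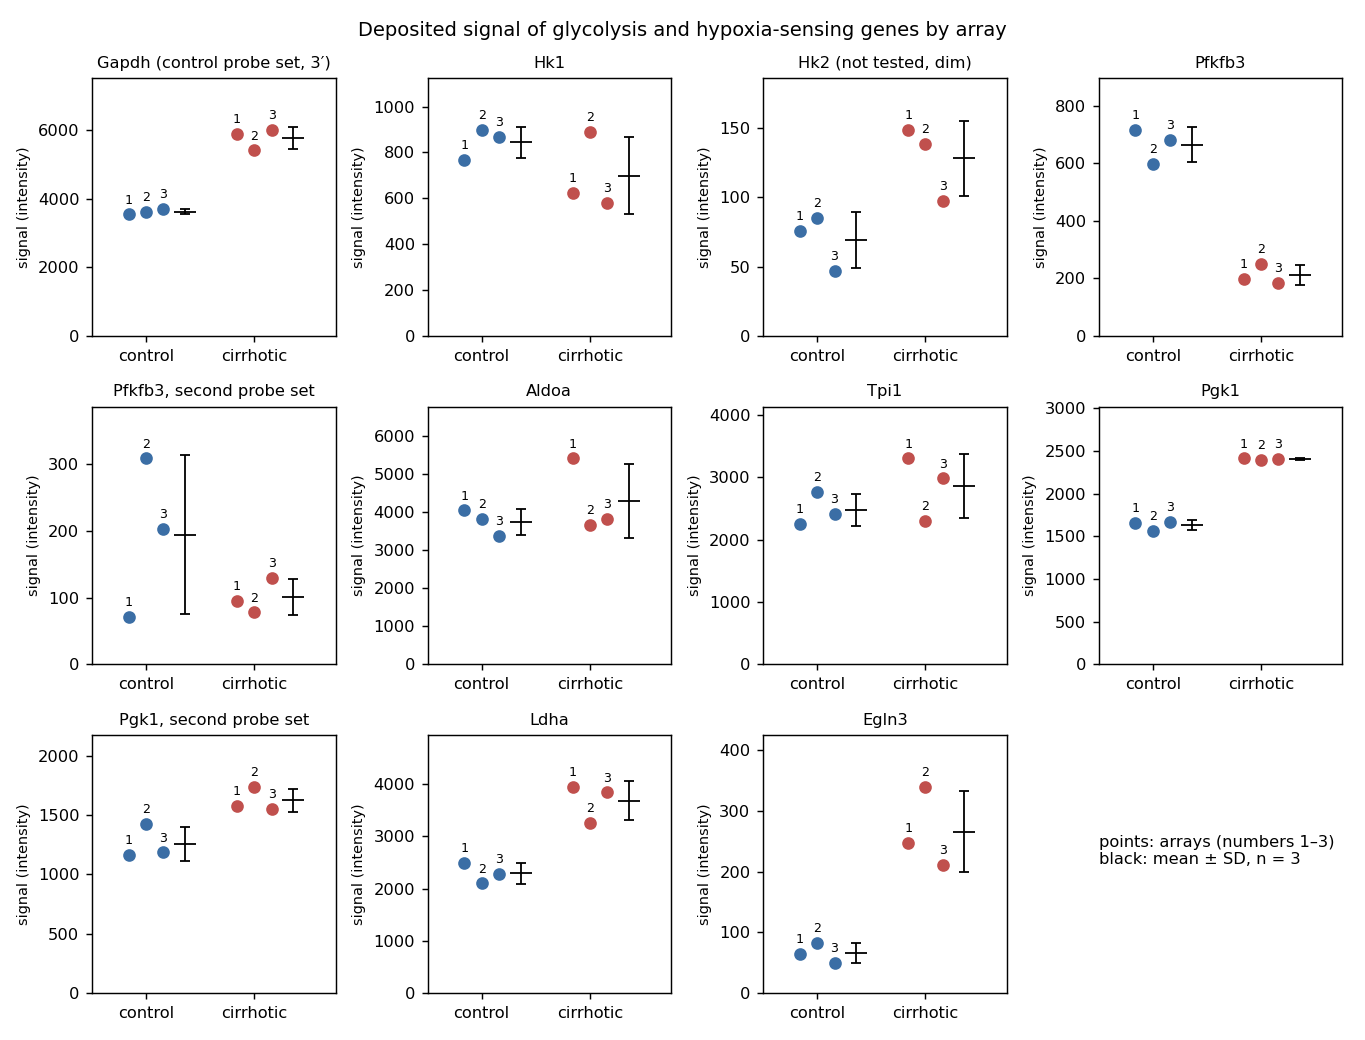
Deposited signal (linear intensity, axes from 0) of 11 probe sets on each of 3 control (blue) and 3 cirrhotic (red) arrays, numbered as arrays, with the mean and SD in black. Gapdh, both Pgk1 probe sets, Ldha and Egln3 lay higher on every cirrhotic array, Pfkfb3 lay lower on its brighter probe set, and Hk1, Aldoa and Tpi1 overlapped.

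Hexokinases carry out the first step, the phosphorylation of glucose. Hk1, the form found in most cells, read 768.1, 898.3 and 868.1 on control arrays 1 to 3 and 622.1, 890.7 and 581.8 on cirrhotic arrays 1 to 3. Cirrhotic array 2 lay within the control values, while arrays 1 and 3 lay below them. The difference was -0.29 on the log2 scale (SE 0.18, 95% interval -0.71 to 0.13, n = 3 per group, adjusted p = 0.27 in limma), so a fall of up to 0.71 lay within the interval.

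The 3 hexokinase control probe sets were dim and gave no clear direction. The 3′ probe set read 201.2, 151.9 and 189.3 in controls and 200, 194.3 and 193.5 in cirrhosis, a log2 difference of 0.12 (two-sided exact permutation p = 0.5). The middle probe set differed by -0.02 (exact p = 1) and the 5′ probe set by 0.43 (exact p = 0.4). Control array 1 was lowest on both of these, at 104 and 27.1. The smallest two-sided p that 3 against 3 arrays allow is 0.1.

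Hk2, the insulin- and hypoxia-responsive form, read 75.6, 85.2 and 46.7 in controls and 148.5, 138.5 and 97.3 in cirrhosis. All 6 values lay above the brightest bacterial control probe set of their array, and the groups did not overlap. Its mean over the 6 arrays fell under the filter, which removed the dimmest 40% of probe sets (a signal of about 127), so it had no place in the test. The log2 difference was 0.77, and with all 15866 probe sets tested it had an SE of 0.25 and an adjusted p of 0.0854 in limma.

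Within each array, log2 Hk2 minus log2 Hk1 was compared between groups to see whether the forms moved unequally. The difference was -3.10, -3.18 and -3.82 in controls and -1.96, -2.55 and -2.40 in cirrhosis, without overlap. It was higher by 1.06 in cirrhosis (two-sided exact permutation p = 0.1, the smallest possible, and 0.15 after Benjamini-Hochberg adjustment over 3 such pairs). Because Hk2 is dim, the value depends on the added constant and was 0.63 with 126 in place of 16. These values compare changes and not the amounts of the 2 forms.

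Pfkfb3 makes and breaks down the activator of phosphofructokinase, with synthesis prevailing, and was the 1 gene of the 7 tested that fell. Its brighter probe set read 716.5, 598.9 and 681.4 in controls (mean 666 ± 60.4 SD) and 198.6, 250.4 and 184.1 in cirrhosis (211 ± 34.9 SD, n = 3 each). Every cirrhotic array lay below every control array. Pfkfb3 fell by 1.59 on the log2 scale (SE 0.15, 95% interval -1.95 to -1.24, adjusted p = 0.000717 in limma). Only 3.2% of tested probe sets had a larger or equal absolute difference.

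The second Pfkfb3 probe set stood close to the filter and was noisier. It read 70.7, 308.1 and 202.2 in controls and 94.8, 77.9 and 129.6 in cirrhosis, and control array 1 lay below every cirrhotic array. Its difference was -0.67 (SE 0.45, 95% interval -1.71 to 0.37, adjusted p = 0.303). Without control array 1 it was -1.21 with an adjusted p of 0.0285. Both probe sets gave a lower mean in cirrhosis, but on all 6 arrays only the brighter one passed the test.

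Aldoa, the muscle-type aldolase found in most tissues, read 4051.6, 3825.5 and 3385.9 in controls and 5420.8, 3661.2 and 3820 in cirrhosis. Cirrhotic array 1 stood above the rest, and the other two lay among the controls. The log2 difference was 0.18 (SE 0.16, 95% interval -0.20 to 0.55, adjusted p = 0.456). Without cirrhotic array 1 it was -0.0016, so the direction rests on that array.

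Tpi1, which interconverts the triose phosphates that aldolase makes, read 2254.5, 2763.7 and 2414.4 in controls and 3304.9, 2307.7 and 2982.7 in cirrhosis. Cirrhotic arrays 1 and 3 lay above the controls and array 2 lay among them. The log2 difference was 0.20 (SE 0.16, 95% interval -0.16 to 0.56, adjusted p = 0.384). The intervals of Aldoa and Tpi1 run from just below 0 to 0.55 and 0.56, so these arrays leave room for a small fall or a rise of moderate size.

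Gapdh oxidises glyceraldehyde phosphate and is often used as a reference transcript on the assumption that it does not vary. Rat Gapdh also has many near-identical pseudogenes, which these probes may not tell apart. Its 3′ control probe set read 3547.1, 3632.1 and 3707.7 in controls (3629 ± 80.3 SD) and 5906.4, 5413.6 and 6012.9 in cirrhosis (5778 ± 320 SD). The lowest cirrhotic array lay far above the highest control. The log2 difference was 0.67, with a two-sided exact permutation p of 0.1.

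The other Gapdh control probe sets did the same. The 5′ probe set read 2597.4, 3359.5 and 2997.3 in controls and 5144.4, 4794.1 and 5269.7 in cirrhosis, a difference of 0.77. The middle one read 2430.7, 2516.5 and 2815.7 against 4871.6, 4160.6 and 5178.9, a difference of 0.87. Neither showed any overlap, and each had an exact p of 0.1.

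When these control probe sets were tested in the same limma fit as the other probe sets, a choice made after seeing the data, all 3 for Gapdh passed. The 3′ probe set had an SE of 0.09 (95% interval 0.46 to 0.87, adjusted p = 0.00194), the 5′ probe set an SE of 0.12 (adjusted p = 0.00348) and the middle one an SE of 0.12 (adjusted p = 0.00225). The folds were 1.59, 1.70 and 1.82. The 3 differences lay between 0.72 and 0.91 with quantile normalization and between 0.59 and 0.79 with median centring, with adjusted p between 0.0011 and 0.00508.

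The ratio of 3′ to 5′ signal, a measure of RNA integrity, was read from the same probe sets. For Gapdh it was 1.23 ± 0.142 SD in controls and 1.14 ± 0.00955 SD in cirrhosis (n = 3 each, two-sided exact permutation p = 0.4). For hexokinase it was 4.26 ± 2.87 SD against 2.65 ± 0.231 SD (exact p = 0.6), with control array 1 at 7.42. The hexokinase ratio rests on dim 5′ signals, so its spread in controls is wide.

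Pgk1, which makes the first ATP of the pathway, had 3 probe sets. The brightest read 1656.5, 1566.4 and 1674.1 in controls (1632 ± 57.8 SD) and 2413.6, 2396.4 and 2403.9 in cirrhosis (2405 ± 8.62 SD). The 3 cirrhotic arrays were nearly alike and all above the controls. Pgk1 rose by 0.55 on this probe set (SE 0.10, 95% interval 0.32 to 0.79, 1.47-fold, adjusted p = 0.00701 in limma).

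The second Pgk1 probe set, whose name marks sequence shared between transcripts, read 1163.6, 1423.5 and 1184.2 in controls and 1579, 1736.4 and 1553.7 in cirrhosis. The groups did not overlap, though control array 2 came within reach of the cirrhotic values. The difference of 0.37 (SE 0.13, 95% interval 0.07 to 0.67) missed the threshold (adjusted p = 0.0717) and passed it when arrays were weighted by quality (adjusted p = 0.0252). The third Pgk1 probe set read 0.7 to 5.1 in controls and 3.3 to 7.4 in cirrhosis, within the bacterial controls on all 6 arrays, and had no measurable level.

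Ldha, the lactate dehydrogenase subunit that favours lactate formation, read 2497, 2100.5 and 2285.2 in controls (2294 ± 198 SD) and 3949.9, 3264.7 and 3843.6 in cirrhosis (3686 ± 369 SD). All cirrhotic arrays were above all controls. Ldha rose by 0.68 on the log2 scale (SE 0.12, 95% interval 0.40 to 0.96, 1.60-fold, adjusted p = 0.00643 in limma).

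Ldhb, the subunit that favours pyruvate, differed by 0.05 (SE 0.28, adjusted p = 0.916), and its sign turned with median centring. Log2 Ldha minus log2 Ldhb was 1.85, 1.18 and 1.57 in controls and 2.88, 1.44 and 2.16 in cirrhosis. The groups overlapped through cirrhotic array 2. The mean difference of 0.63 had a two-sided exact permutation p of 0.3, unchanged by adjustment, so an unequal change of the subunits was not shown.

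**Figure D2:**
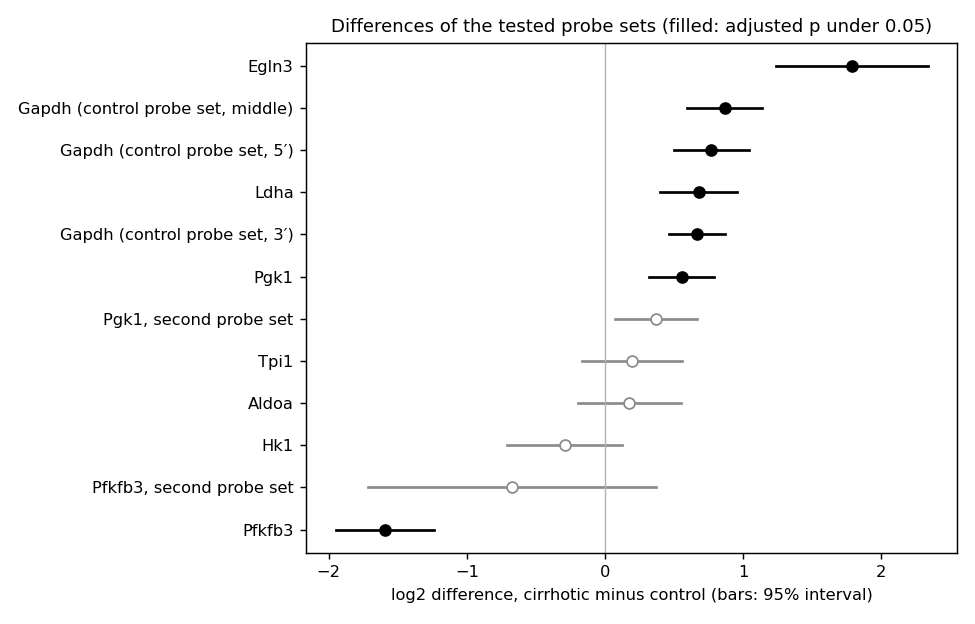
Log2 difference of cirrhotic minus control for 12 probe sets, with 95% intervals; filled points had an adjusted p under 0.05. Egln3 lies farthest to the right at 1.79, the brighter Pfkfb3 probe set farthest to the left at -1.59, and Gapdh, Ldha and Pgk1 between 0.55 and 0.87 among the filled points. The Gapdh control probe sets were added to the fit after the data were seen.

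Egln3 encodes the prolyl hydroxylase most strongly induced in hypoxia in many cell types. It read 64.4, 83 and 49.1 in controls (65.5 ± 17.0 SD) and 247.3, 339.9 and 210.9 in cirrhosis (266 ± 66.5 SD). The lowest cirrhotic value was well above the highest control. Egln3 rose by 1.79 on the log2 scale (SE 0.24, 95% interval 1.24 to 2.34, adjusted p = 0.00199 in limma), and 2.14% of tested probe sets differed by as much or more.

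The mean Egln3 signal stood just above the filter, at the 41.0 percentile of all probe sets, and only its cirrhotic level carried it over. With 126 added in place of 16 the difference was 1.02. The fold of mean signals, with nothing added, was 4.06. The direction and the call were the same without each array in turn, where the difference ranged from 1.61 to 1.94.

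Egln1, the hydroxylase that sets the level of hypoxia-inducible factors at normal oxygen, differed by 0.34 (SE 0.15, adjusted p = 0.12), and Egln2 by -0.17 (adjusted p = 0.338). Within arrays, log2 Egln3 minus log2 Egln1 was -2.42, -2.49 and -2.88 in controls and -1.14, -0.94 and -1.38 in cirrhosis, without overlap. It was higher by 1.44 in cirrhosis (two-sided exact permutation p = 0.1, adjusted 0.15), and by 0.74 with 126 added.

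The other genes of these pathways were read from 6 lists holding 79 tested genes. Of these 19 (24.1%) were called, against 25.4% of all probe sets. In cirrhosis 16 were higher and 3 lower, against 12.3% higher and 13.2% lower over all probe sets. Of the 16, Lox entered the test only through its cirrhotic level. With median centring 16 were called, 11 higher and 5 lower. The median difference was 0.17. The number fell to 9 without control array 3, 11 without control array 1 or control array 2, and 12 without cirrhotic array 1.

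Among 12 other tested glycolysis enzymes 3 rose, 1 fell and 8 were not called (median 0.12), and 5 more were too dim. Over all probe sets 25.4% were called, 12.3% higher and 13.2% lower. Pfkp, the platelet-type phosphofructokinase, had a mean signal of 151 in controls and 556 in cirrhosis and rose by 1.72 (SE 0.27, adjusted p = 0.00375). Its cirrhotic values were 706.3, 625.7 and 335.2, all above the highest control of 175.5. Eno1, the common enolase, rose by 0.74 (SE 0.17, adjusted p = 0.0185). That call was lost on removal of control array 1 (adjusted p = 0.0634), of control array 3 (0.0695) and of cirrhotic array 1 (0.07).

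Pgam1, a phosphoglycerate mutase, rose by 0.45 (SE 0.09, adjusted p = 0.0102), from 2865 to 3927 in mean signal. Pgm2, a phosphoglucomutase family enzyme, fell by 0.96 (SE 0.13, adjusted p = 0.00194), from 1228 to 625. Pfkl, the liver-type phosphofructokinase, differed by -0.48 (adjusted p = 0.0853) and did not pass. Gpi, which interconverts the hexose phosphates, differed by 0.34 (adjusted p = 0.134), and passed without cirrhotic array 3 (0.48, adjusted p = 0.0374). With array weights Gpi also passed (0.38, adjusted p = 0.0334). Of the 5 too dim to test, Eno3 (mean signal 14.7 against 132), Eno2 (70.9 against 168), Pfkfb4 (59.8 against 109) and Aldoc (9.17 against 11.2) had no overlap between groups. Pgam2 (3.60 against 3.07) overlapped. The share without overlap was 44.9% among tested, brighter probe sets and was not counted among dim ones. Aldoc and Pgam2 on every array, and Eno3 on the controls, read below the brightest bacterial control probe sets (21.7 to 49.9). Aldoc and Pgam2 thus had no measurable level. These 5 were named after their values were seen.

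Among 10 liver-type and gluconeogenic genes 1 was called (median 0.18), against 25.4% of all probe sets. Slc2a2, the glucose transporter of hepatocytes, read 185.2, 132.7 and 173.2 in controls and 627, 831.7 and 439.6 in cirrhosis. It rose by 1.82 (SE 0.24, adjusted p = 0.00187), from 164 to 633. Pklr, the liver and red cell pyruvate kinase, differed by -0.70 (SE 0.23, adjusted p = 0.0633) and passed without cirrhotic array 3 (-0.94, adjusted p = 0.00865). It also passed with median centring (-0.77, adjusted p = 0.0379) and with array weights (-0.81, adjusted p = 0.00822). Cirrhotic array 3 had the highest summed hepatocyte marker signal of the 6 arrays and the lowest Slc2a2 signal of its group. Any link of hepatocyte markers to these genes was not tested.

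Among 15 genes of glucose and lactate transport and of pyruvate fate 5 rose and 0 fell (median 0.25), against 12.3% higher and 13.2% lower over all probe sets. The count rests on single arrays: it was 1 on removal of control array 1 or 3 or of cirrhotic array 1, 2 without control array 2 and 3 without cirrhotic array 2. It was 3 with median centring and 0 with the block by array number. Mpc2, a subunit of the mitochondrial pyruvate carrier, rose by 0.69 (SE 0.13, adjusted p = 0.00709). Slc2a1, the widespread glucose transporter, read 177.8, 275.3 and 258.4 in controls and 519.1, 757.4 and 375.9 in cirrhosis and rose by 1.13 (SE 0.27, adjusted p = 0.0185). Its call was lost on removal of control array 1 or 3 or of cirrhotic array 1, at adjusted p of 0.0521 to 0.062.

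Slc16a3, a lactate exporter, read 176.3, 177.9 and 172.2 against 512, 570.9 and 228.6 and rose by 1.14 (SE 0.31, adjusted p = 0.03). Cirrhotic array 3 was the lowest of its group for Slc16a3, Slc2a1, Pfkp and Eno1, and the highest for Mpc2 and the Gapdh 3′ probe set. Within that group it also held the lowest summed cholangiocyte, macrophage, T and NK cell, erythroid, neutrophil and mast cell markers. Its summed endothelial and hepatocyte markers were the highest of the group. Any link between these markers and these genes was not tested. Slc16a1, a lactate transporter, rose by 0.65 (adjusted p = 0.0362). Both Slc16 calls were lost on removal of any single array except cirrhotic array 3. Bsg, their chaperone, also rose, by 0.38 (adjusted p = 0.0454), a call lost on removal of any array except cirrhotic array 2, and was named after its values were seen. Pdk1, which holds pyruvate back from the mitochondrial dehydrogenase, differed by -0.43 (adjusted p = 0.157), and passed without cirrhotic array 3 (-0.63, adjusted p = 0.0298). Pdk1 also passed with array weights (-0.62, adjusted p = 0.0192).

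Of 7 pentose phosphate genes 2 rose and 0 fell (median 0.41), near the 25.4% called over all probe sets. The count was 1 with median centring and on removal of any control array or of cirrhotic array 3, and 0 with the block by array number. Taldo1, transaldolase, rose by 0.89 (SE 0.15, adjusted p = 0.00448), from 692 to 1288. Pgd, phosphogluconate dehydrogenase, rose by 0.45 at the edge of the threshold (adjusted p = 0.0499), a call lost on removal of any array except cirrhotic array 2.

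**Figure D3:**
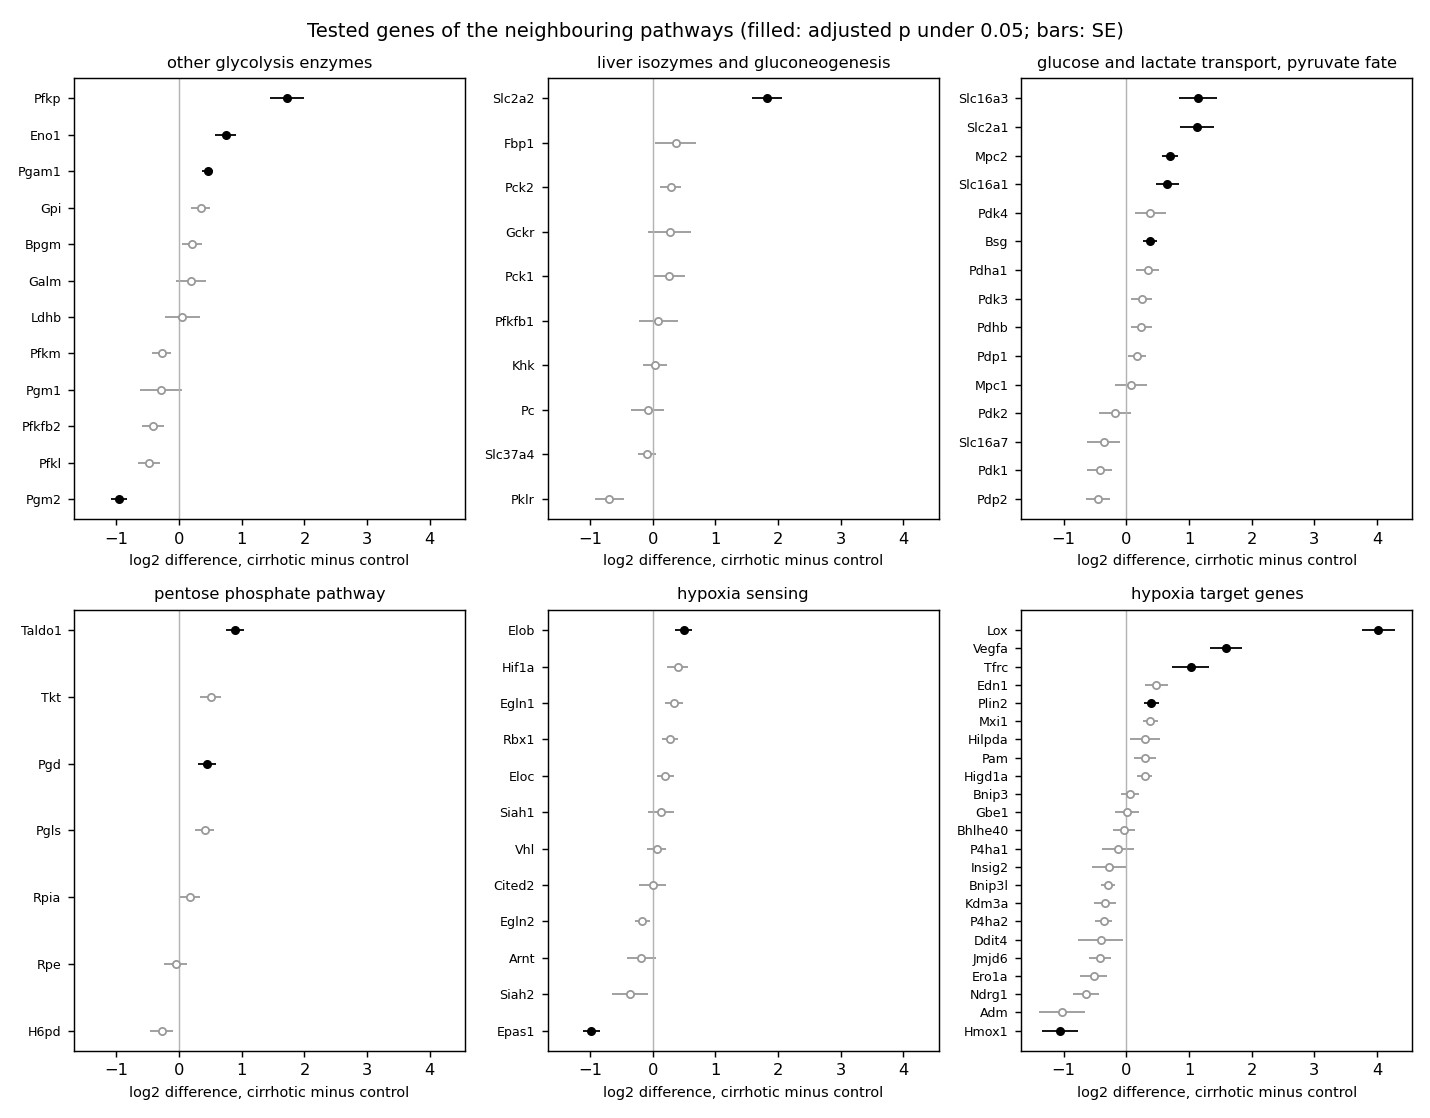
Log2 difference of cirrhotic minus control, with SE, for the tested genes of 6 pathway lists; filled points had an adjusted p under 0.05. Of 79 tested genes 19 are filled, 16 to the right of 0 and 3 to the left, with Lox farthest right at 4.02. Lox entered the test only through its cirrhotic level. Over all tested probe sets 12.3% were called higher and 13.2% lower.

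Among 12 hypoxia sensing genes 1 rose, 1 fell and 10 were not called (median 0.10), below the 25.4% called over all probe sets. The count was 1, with none higher, on removal of any control array or of cirrhotic array 1 and with median centring, and 3 (1 higher, 2 lower) without cirrhotic array 2. Epas1, the hypoxia-inducible factor subunit abundant in endothelium, read 4047.4, 4198.3 and 3833.4 in controls and 2138.4, 1679.4 and 2322.7 in cirrhosis. It fell by 0.98 on this probe set (SE 0.14, adjusted p = 0.00249), and its other, dimmer probe set differed by -0.69 (SE 0.42, adjusted p = 0.255). Hif1a, the widespread subunit, read 1687.4, 2319.6 and 2021.9 against 2916.6, 2862.4 and 2171.4.

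The Hif1a difference was 0.40 (SE 0.17, adjusted p = 0.117), with cirrhotic array 3 among the controls, and passed without that array (0.53, adjusted p = 0.0387). Hif1a also passed with array weights (0.55, adjusted p = 0.0147). Vhl, the ubiquitin ligase subunit that recognises hydroxylated factors, differed by 0.06 (adjusted p = 0.796), and its sign turned with median centring. Elob, a partner of Vhl, rose by 0.49 (SE 0.14, adjusted p = 0.0366), a call lost on removal of any array except cirrhotic array 2.

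Of 23 other known hypoxia targets 4 rose, 1 fell and 18 were not called, with a median difference of -0.04, against 12.3% higher and 13.2% lower over all probe sets. The balance was not stable: 3 were higher and 5 lower without cirrhotic array 2, 5 higher and 4 lower with array weights, and 2 higher and 0 lower without control array 2 or control array 3. Vegfa, the vascular growth factor, read 137.1, 147.1 and 121.7 in controls and 474.1, 619.5 and 284 in cirrhosis and rose by 1.59 (SE 0.26, adjusted p = 0.0046). Lox, which cross-links collagen and was also listed among the stellate cell and myofibroblast markers, rose by 4.02 (SE 0.26, adjusted p = 0.000361). Its control values of 104.4, 78.7 and 56.7 lay under the filter signal, so Lox entered the test through its cirrhotic level.

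Tfrc, the transferrin receptor and also on the erythroid marker list, rose by 1.02 on its brighter probe set (adjusted p = 0.0384), lost without cirrhotic array 1 or any 1 of the controls. Its other probe set rose by 1.09 (SE 0.18, adjusted p = 0.00471). Hmox1, haem oxygenase, fell by 1.06 (adjusted p = 0.0304), a call lost without control array 2 or 3 and with array weights (adjusted p = 0.0535). Plin2, a lipid droplet coat protein, rose by 0.40 on its brighter probe set (adjusted p = 0.0494), lost on removal of any array, and by 1.21 on its other (SE 0.20, adjusted p = 0.00428). It was named after its values were seen. Adm, adrenomedullin, differed by -1.03 (SE 0.36, adjusted p = 0.0736), and passed without control array 1 (-1.44, adjusted p = 0.0143). Bnip3, a mitophagy receptor, differed by 0.05 (adjusted p = 0.822), and its sign turned with median centring.

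**Figure D4:**
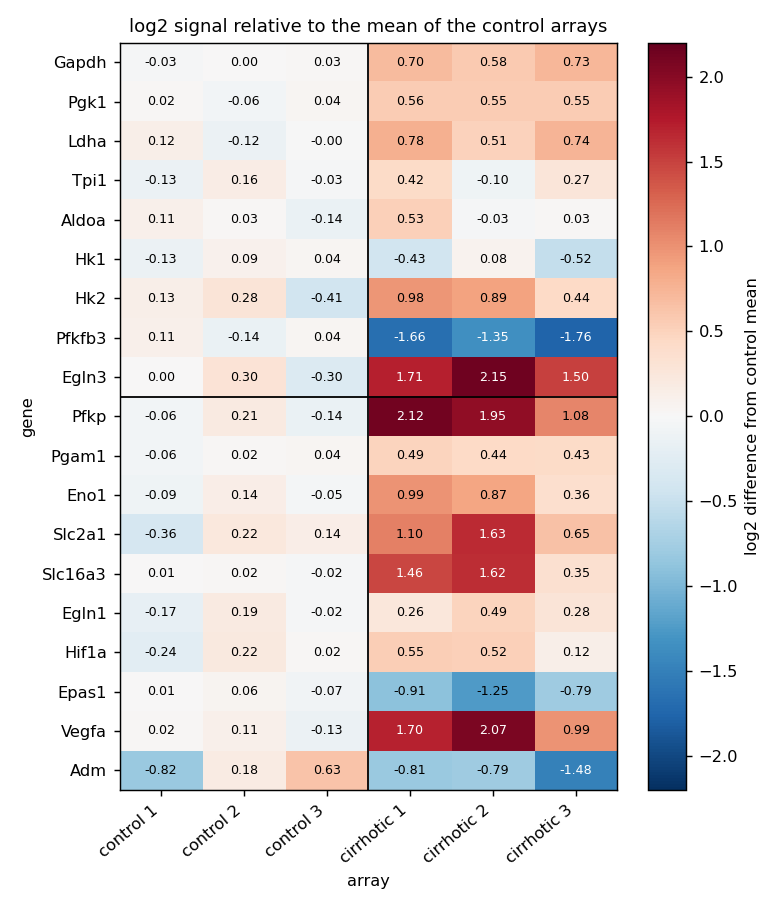
Log2(signal + 16) on each array minus the mean of the control arrays, for 9 chosen genes above the line and 10 pathway genes below it, with values printed in the cells. Gapdh, Pgk1 and Ldha are raised on all 3 cirrhotic arrays (0.51 to 0.78), Pfkfb3 is lowered (-1.76 to -1.35) and Egln3 raised, by up to 2.15.

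Genes with the most similar profile over the 6 arrays were sought among 8177 tested probe sets, by the root mean square distance between log2 values centred on each gene's own mean. Closest to the Gapdh 3′ probe set were Mrps27 (distance 0.0557, difference 0.64), Sec13 (0.0557, 0.68) and Yipf5 (0.0631, 0.61). Closest to Pfkfb3 were Npr1 (distance 0.0877, difference -1.73), Enpp4 (0.0999, -1.63) and Arrdc4 (0.111, -1.73). Closest to Egln3 were Icos (0.0962, 1.77), Glrx (0.117, 1.95) and Tnfrsf14 (0.136, 1.77). The likeness is a description over 6 arrays in 2 groups.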

How the data were processed

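The authors deposited 1 intensity per probe set and array on a linear scale, read here from the series' value table. Their software is not given in the sources used here. Without its lowest and highest 2%, the mean signal was 398.711 to 399.318 on every array, so the deposited scaling was kept. Scaled signals show a transcript's share of the array and hide any change in the RNA content of cells. No detection calls were used, and 0 further columns were left aside.

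Values were turned into log2(signal + 16), 16 being their 10th percentile. The 57 control probe sets and the dimmest 40% by mean were left out (6347 removed, 9519 tested). The group difference was fitted in limma 3.58.1 (R 4.3.3), using lmFit and trended eBayes, two-sided, with Benjamini-Hochberg adjustment over 9519 probe sets and a threshold of 0.05. Control probe sets and within-array pairs had exact permutation tests. The test was also run on simulated data with independent noise, where the changed probe sets lay above the filter. That run does not cover probe sets at the edge of the filter, and no result here rests on it.

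The platform annotation gave 12783 probe sets 1 symbol, 312 several and 2771 none. All chosen genes were named whatever their result, with a preset choice of pathway genes (some are not reported here) and up to 4 called genes per list with the smallest p; genes with several probe sets used the brightest. The genes and lists were chosen with earlier results of these data known. Alternatives covered scaling, added constant, filter, variance model, array weights, shared-sequence probe sets, a block for array numbers and omission of single arrays.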

Additional observations from a re-analysis of the deposited data

How the results depend on the processing

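Pfkfb3 (brighter probe set) kept its direction and call under 18 alternatives (adjusted p 8.77e-05 to 0.00809) and Egln3 under 17, being under the filter at 60%. Ldha and Pgk1 each kept direction in 18 and lost the call in 1, the block by array number. That block used arrays 2 and 3 of each group (4 arrays), since control array 1 has no number in its title. With it 908 probe sets, 2 chosen probe sets, 2 chosen genes and 9 pathway genes were called, Ldha had an adjusted p of 0.0649 and Pgk1 of 0.164. Deviations of same-numbered arrays correlated at -0.0093 (arrays numbered 2) and -0.16 (arrays numbered 3). So few values cannot settle whether same-numbered arrays share a preparation or batch. Fewer arrays entered that test. Array weights gave 3772 probe sets and 29 pathway genes. Leaving out each array gave 1341 (without control array 3) to 2472 probe sets, with 1366 without cirrhotic array 1, 4 to 5 chosen probe sets, and 9 to 21 pathway genes. The Aldoa difference ranged from -0.0016 (without cirrhotic array 1) to 0.28 on leaving out single arrays, and up to 0.39 (array weights) over its 18 alternatives. With 126 added, Hk2 minus Hk1 was 0.63 and Egln3 minus Egln1 0.74. Where not stated, the cause was not tested. Signal over background limits Hk2, Egln3, the second Pfkfb3 probe set and the hexokinase controls: the brightest of 27 bacterial probe sets read 21.7 to 49.9.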
